A study of Mus musculus with 158 samples.

Results

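Pool 3 of this screen held 54 short hairpin RNAs (shRNAs) against 19 mouse genes, out of 1000 targeting hairpins against 285 genes in 19 pools. Its members were the rows that carry the pool 3 label in the deposited tables, and all 54 had reads in each of the 5 libraries used. The hairpins were carried by PDA530 Met cells, a mouse pancreatic adenocarcinoma line from a liver metastasis. Cells infected with the pool at a low multiplicity of infection, so that most infected cells take up a single hairpin, were selected with puromycin. They were then sampled as pellets at day 0 (2 libraries, B and C) and after 28 days of culture (3 libraries, A, B and C, from cultures kept in triplicate). The other 4 samples of pool 3, day 0 library A and the 3 lung tumour samples, held missing values only and were not analysed here. The comparison therefore covers growth in a dish and not growth in the lung. The culture libraries of pool 3 were labelled for this pool alone, whereas many other culture libraries were labelled for a pair of pools. The labels do not say whether the day 0 libraries came from separate pellets, so p-values measure the spread between these libraries, which may be technical at day 0.

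A pooled shRNA screen reads the growth of many knockdowns in competition. A hairpin is integrated into the genome, is copied with the cell that carries it, and lowers the mRNA of its target gene through the RNA interference machinery. When a knockdown slows division, the share of cells with that hairpin falls with time, and when it speeds division the share rises. Hairpins against the same gene can differ in how well they lower their target and in which other transcripts they touch. Neither knockdown nor the expression of the targets was measured here. Several targets of pool 3 are well known in pancreatic cancer. Cdkn2a is a tumour suppressor often deleted in these tumours, and Tgfbr2, Arid1a, Smarca4 and Mll3 (now Kmt2c) are recurrently altered in them. Others, such as Neb, Syne1, Hmcn1, Csmd3 and Zfhx4, are long genes. The accessions of all 19 genes matched an entry of RefSeq.

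The libraries held 6143729 to 9229253 recovered reads, of which 93.2% to 96.4% were pool 3 hairpins and 3.46% to 6.69% were the 8 control hairpins. Reads of other pools made up 0.0356% and 0.0796% at day 0 and 0.150%, 0.0988% and 0.617% in cultures A, B and C. Most of them were pool 13 hairpins in day 0 libraries B and C (0.0707% and 0.0298% of the reads) and in cultures A and C (0.124% and 0.614%). In culture B pool 13 made up 0.0128%. Values below are shares, in percent of the pool 3 reads of a library. Changes are log2 differences between culture and day 0, fitted with limma on shares written as CPM with 1 added. The Benjamini-Hochberg adjustment ran over the targeting and control hairpins of 18 pools together, and a hairpin was called at an adjusted p under 0.05.

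Over 28 days of culture, 36 of the 54 hairpins changed their share, 10 upwards and 26 downwards. The same fit called 64.8% of the targeting hairpins of all pools, 17.1% higher and 47.6% lower, against 66.7%, 18.5% and 48.1% in pool 3, so the shares in pool 3 lay near the background. The median change in pool 3 was -0.74, beside -0.64 over all pools. Shares add up to 100%, so the rise of a few abundant hairpins lowers the share of the rest, and the division of calls depended on the scaling. Of the called hairpins, 27.8% were higher on shares and 29.7% on the deposited values, but 57.7% with TMM factors, 55.6% with DESeq2 size factors and 60.0% relative to the control total. The medians in these last 3 fits were -0.04, -0.05 and -0.003.

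Calls that held under all 5 scalings are therefore described first. There were 10 such rises and 10 such falls in pool 3, each 18.5% of the 54 hairpins. These were all 10 of the rises called on shares and 10 of the 26 falls. The other scalings gave higher medians than shares, so the rule of all 5 scalings favoured rises called on shares over falls. Over all pools the figures were 9.10% for rises and 28.9% for falls. Many culture libraries of other pools were labelled for a pair of pools, and their control total held the controls of both. Changes relative to the control total therefore lie lower in those pools, and the figures are not like for like with pool 3. The 10 hairpins that rose were single hairpins against Arid1a, Cdkn2a, Mll3, Smarca4, Syne1 and Tmtc2 and pairs against Hmcn1 and Znrf2. Those that fell included single hairpins against Cdh10, Csmd3, Hmcn1, Pik3ca, Rsbn1l, Tgfbr2 and Trim63 and a pair against Neb. When each of the 5 libraries was left out in turn, all 10 falls and 7 of the 10 rises were still called. No hairpin was called higher under one scaling and lower under another, and 13 were called under none.

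Pik3ca encodes the catalytic alpha subunit of PI3K, which makes the lipid signal that activates Akt. All 3 of its hairpins fell on the share scale, where 47.6% of the targeting hairpins of all pools were called lower. TRCN0000234001 went from 0.816% and 0.699% to 0.162%, 0.159% and 0.215%, a change of -2.09 (SE 0.28, Benjamini-Hochberg adjusted p = 0.000487, limma). This was the Pik3ca hairpin called under all scalings. TRCN0000234003, the fifth most abundant hairpin at day 0, held 4.94% and 5.30% and then 2.47%, 2.99% and 2.62% (change -0.93, SE 0.13). Its groups were apart with a small spread, and 35 of the 54 pool 3 hairpins had groups apart in this direction on shares. Its change was -0.19 relative to the controls and was called under only 2 scalings, shares and deposited values. TRCN0000234002 held 0.220% and 0.226% and then 0.0477%, 0.0356% and 0.103% (change -1.99, SE 0.56, Benjamini-Hochberg adjusted p = 0.0170, limma). That call was lost without day 0 library B (adjusted p = 0.0797 by limma), day 0 library C (0.0870) or culture B (0.0509). Summed, the 3 hairpins held 5.98% and 6.23% of the pool at day 0 and 2.68%, 3.18% and 2.94% in culture.

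Tgfbr2 is the type II receptor for TGF-beta, which restrains the growth of many epithelial cells. TRCN0000294529 fell, from 0.594% and 0.541% to 0.0532%, 0.104% and 0.115% (change -2.72, SE 0.45, Benjamini-Hochberg adjusted p = 0.00132, limma). TRCN0000294600 held 0.669% and 0.621% at day 0 and 0.324%, 0.479% and 0.420% in culture, and its change of -0.68 (SE 0.26) was not called (Benjamini-Hochberg adjusted p = 0.0536, limma). On shares both hairpins were below day 0 in every culture, as were 35 of the 54 pool 3 hairpins in all. The change of TRCN0000294600 was 0.02 with TMM factors, 0.01 with DESeq2 size factors and 0.06 relative to the control total. On shares it was called lower without culture B (-0.81, Benjamini-Hochberg adjusted p = 0.0268, limma).

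The cell cycle genes Cdkn2a and Rb1 had 1 hairpin each. Cdkn2a encodes p16Ink4a and p19Arf, which hold cells in G1 through the Rb and p53 pathways. Its hairpin TRCN0000257162 held 0.121% and 0.0717% at day 0 and 0.154%, 0.321% and 0.739% in cultures A, B and C. Each culture exceeded both day 0 libraries, but the cultures differed widely from each other. The change was 1.83 (SE 0.68, Benjamini-Hochberg adjusted p = 0.0481, limma), the largest among the called rises on this scale. Without culture C it was 1.25 and without culture B 1.86, and neither passed the threshold (Benjamini-Hochberg adjusted p = 0.0982 and 0.166, limma). With a pseudocount of 100 in place of 1 it was 1.73 and also missed it (Benjamini-Hochberg adjusted p = 0.0511, limma). Rb1 encodes the retinoblastoma protein, which blocks entry into S phase. Its hairpin TRCN0000218099 was the rarest of the pool, with 4 and 84 reads at day 0 and 492, 96 and 708 in culture. In the same libraries the highest count of a single hairpin from another pool was 1050 and 455 reads at day 0 and 973, 582 and 3979 in cultures A, B and C, above the Rb1 hairpin in each. The part of such reads in its counts was not tested. The change was not called (Benjamini-Hochberg adjusted p = 0.199, limma). With libraries B and C alone and the replicate letter as a block it was called higher (2.85, Benjamini-Hochberg adjusted p = 2.91e-06, limma). The labels do not say that a letter marks a shared culture.

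Chromatin and transcription genes had 13 hairpins, of which 3 were called higher, 5 lower and 5 neither way, beside 17.1% and 47.6% over all pools. The 3 rises held under all 5 scalings and none of the 5 falls did, beside all 10 rises and 10 of the 26 falls of pool 3. Over all pools 9.10% and 28.9% of targeting hairpins were so called, figures not like for like with pool 3. The other scalings lay above shares in median, so falls were more easily lost than rises. Smarca4 encodes Brg1, the ATPase of the SWI/SNF complex that moves nucleosomes, and Arid1a is a DNA-binding subunit of the same complex. Smarca4 hairpin TRCN0000288075 rose from 8.15% and 7.95% to 12.3%, 15.3% and 15.6%, a change of 0.83 (SE 0.13, Benjamini-Hochberg adjusted p = 0.00119, limma). It was the most abundant hairpin of the pool in cultures B and C and second in culture A. The other Smarca4 hairpins were not called on shares, at 0.36 (SE 0.22) for TRCN0000288151, which was called higher under 3 other scalings and without culture A (0.52, Benjamini-Hochberg adjusted p = 0.0247, limma), and -0.59 (SE 0.36) for TRCN0000288073.

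Arid1a hairpins were called in opposite directions. TRCN0000238304 rose from 0.921% and 0.899% to 1.74%, 1.77% and 1.99%, with a change of 1.01 (SE 0.18, Benjamini-Hochberg adjusted p = 0.00204, limma). TRCN0000238306 fell from 1.76% and 1.82% to 1.01%, 0.636% and 0.50% (change -1.38, SE 0.32, Benjamini-Hochberg adjusted p = 0.00734, limma). The fall was called on shares and deposited values only, and not without culture B (Benjamini-Hochberg adjusted p = 0.0552, limma). The remaining hairpins, TRCN0000238303 (-0.45, SE 0.25) and the rare TRCN0000238305 (-2.61, SE 1.11, 0.0281% at day 0), were not called. TRCN0000238305 was called lower with a pseudocount of 100 (-1.33, Benjamini-Hochberg adjusted p = 0.0249, limma) or without culture A (-1.97, adjusted p = 0.0169), and TRCN0000238303 without culture B (-0.59, adjusted p = 0.0216). The 4 Arid1a hairpins together held 3.25% and 3.28% at day 0 and 3.11%, 2.89% and 2.85% in culture.

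Mll3 encodes a histone H3 lysine methyltransferase that acts at enhancers. All 4 of its hairpins were called on shares, 3 lower and 1 higher (47.6% and 17.1% over all pools). TRCN0000238937 went from 1.91% and 2.02% to 0.798%, 0.701% and 0.595% (change -1.50, SE 0.22, Benjamini-Hochberg adjusted p = 0.000641, limma) and was called under 4 of the 5 scalings. TRCN0000238935 changed by -0.94 (SE 0.20) and TRCN0000238936 by -0.56 (SE 0.15), each called under 2 scalings. The change of TRCN0000238936 turned positive with TMM factors (0.14), DESeq2 size factors (0.13) and the control total (0.18). TRCN0000238934 rose, from 0.501% and 0.492% to 0.763%, 0.726% and 0.774% (change 0.60, SE 0.21, Benjamini-Hochberg adjusted p = 0.0377, limma). Its call held under all scalings but not without day 0 library B, day 0 library C or culture C (Benjamini-Hochberg adjusted p = 0.261, 0.293 and 0.0533, limma). The calls of TRCN0000238935 and TRCN0000238936 also depended on day 0 library C (0.0634 and 0.172), and that of TRCN0000238936 on library B (Benjamini-Hochberg adjusted p = 0.0854, limma).

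Zfhx4, a zinc finger homeobox factor, supplied the most abundant hairpin at day 0. TRCN0000350576 held 11.7% and 11.9% and then 9.15%, 7.60% and 6.06% in cultures A, B and C. It was called lower on shares (change -0.65, SE 0.18, Benjamini-Hochberg adjusted p = 0.0154, limma), but the change was 0.05 with TMM factors and 0.09 against the control total. The call was also lost without culture B (Benjamini-Hochberg adjusted p = 0.0860, limma). Its partner TRCN0000350638 had overlapping groups (change -1.05, SE 0.89) and was called lower without culture A (-1.82, Benjamini-Hochberg adjusted p = 0.0210, limma).

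Genes of adhesion, matrix and cytoskeleton had 14 hairpins, with 3 called higher, 8 lower and 3 neither way, beside 17.1% and 47.6% over all pools. All 3 rises and 4 of the falls held under all scalings, beside all 10 rises and 10 of the 26 falls of pool 3. Over all pools 9.10% and 28.9% were so called, figures not like for like with pool 3. Neb encodes nebulin, the giant protein along the thin filaments of skeletal muscle. Its 4 hairpins were all called lower, and with Pik3ca it was 1 of 2 genes among the 17 with at least 2 hairpins for which that was so. TRCN0000251853 went from 0.988% and 1.09% to 0.229%, 0.151% and 0.148% (change -2.59, SE 0.30, Benjamini-Hochberg adjusted p = 0.000206, limma). TRCN0000251850 went from 2.13% and 2.57% to 0.584%, 0.834% and 0.409% (change -2.0, SE 0.33, Benjamini-Hochberg adjusted p = 0.001355, limma). These 2 held under all scalings. TRCN0000251851 changed by -1.31 (SE 0.35) and TRCN0000251852 by -0.79 (SE 0.21), each called under 2 scalings. The first of them was not called without day 0 library B or C (Benjamini-Hochberg adjusted p = 0.0981 and 0.124, limma) and the second not without culture B (0.0552). The 4 hairpins together held 6.51% and 7.21% of the pool at day 0 and 2.35%, 3.03% and 2.90% in culture.

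Hmcn1 encodes hemicentin, an extracellular matrix protein of the immunoglobulin superfamily, and its hairpins went both ways. TRCN0000255010 rose from 4.10% and 4.07% to 6.98%, 7.55% and 7.75% (change 0.86, SE 0.11, Benjamini-Hochberg adjusted p = 0.000327, limma). TRCN0000255011 rose from 3.66% and 3.40% to 6.00%, 6.23% and 6.02% (change 0.79, SE 0.11, Benjamini-Hochberg adjusted p = 0.000487, limma). TRCN0000255008 fell from 1.72% and 1.78% to 0.426%, 0.222% and 0.624% (change -2.17, SE 0.43, Benjamini-Hochberg adjusted p = 0.00348, limma). All 3 calls held under all scalings, so the opposite directions within this gene did not depend on the scaling. The abundant TRCN0000255009 had overlapping groups, with 6.10% and 5.56% at day 0 and 5.53%, 6.61% and 7.99% in culture, and was called higher under 3 other scalings. Hmcn1 hairpins together took up 15.6% and 14.8% of the pool at day 0 and 18.9%, 20.6% and 22.4% in culture, more than those of any other gene in each of these libraries.

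Syne1 encodes nesprin-1, which ties the nucleus to the cytoskeleton. TRCN0000239247 rose from 5.41% and 5.66% to 14.3%, 12.2% and 11.4%, a change of 1.19 (SE 0.13, Benjamini-Hochberg adjusted p = 0.000144, limma). It had the lowest adjusted p among the rises and was the most abundant hairpin of culture A. TRCN0000239248 held 1.63% and 1.65% and then 0.750%, 1.16% and 1.20%, and was not called (change -0.69, SE 0.26, Benjamini-Hochberg adjusted p = 0.0515, limma). It was called lower without culture A (-0.47, Benjamini-Hochberg adjusted p = 0.0170, limma) or culture C (-0.81, adjusted p = 0.0367). Cdh10, a classical cadherin of cell contacts, had the hairpin with the deepest called fall of the pool. TRCN0000251669 went from 0.448% and 0.451% to 0.0246%, 0.104% and 0.0250% (change -3.49, SE 0.71, Benjamini-Hochberg adjusted p = 0.00421, limma). TRCN0000251670 (-1.24, SE 0.31) and TRCN0000251667 (-0.49, SE 0.11) were called lower on shares and deposited values only. The change of TRCN0000251667 turned positive with TMM factors (0.21), DESeq2 size factors (0.20) and the control total (0.24). It was not called without day 0 library B or C (Benjamini-Hochberg adjusted p = 0.120 and 0.115, limma), nor was TRCN0000251670 without culture B (0.0627). TRCN0000251668 was not called on shares (0.42, SE 0.18), although it was called higher under the other 4 scalings. It was also called higher without culture A (0.25, Benjamini-Hochberg adjusted p = 0.0453, limma) or culture C (0.53, adjusted p = 0.0429).

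The ubiquitin ligase genes Trim63 and Znrf2 had 7 hairpins. Trim63 encodes MuRF1, which marks muscle proteins for degradation. TRCN0000254635 fell from 1.51% and 1.30% to 0.0862%, 0.238% and 0.183%, a change of -3.17 (SE 0.45, Benjamini-Hochberg adjusted p = 0.000667, limma), and TRCN0000254634 changed by -2.16 (SE 0.65, Benjamini-Hochberg adjusted p = 0.0234, limma). The second call was made on shares and deposited values only, and was lost without either day 0 library or without culture B (Benjamini-Hochberg adjusted p = 0.107, 0.0506 and 0.0644, limma). TRCN0000254632 and TRCN0000254633 were not called, at -1.0 (SE 0.59) and -0.62 (SE 0.61), although the former was called lower without culture A (-1.10, Benjamini-Hochberg adjusted p = 0.0490, limma). Znrf2 is a membrane-associated RING ligase. TRCN0000295012 rose from 1.29% and 1.42% to 3.64%, 2.18% and 2.34% (change 0.97, SE 0.25, Benjamini-Hochberg adjusted p = 0.0114, limma), and TRCN0000307487 from 1.82% and 2.06% to 3.05%, 2.42% and 2.60% (change 0.47, SE 0.16, Benjamini-Hochberg adjusted p = 0.0366, limma). The rise of TRCN0000307487 was not called without day 0 library B, day 0 library C or culture C (Benjamini-Hochberg adjusted p = 0.268, 0.105 and 0.0699, limma). TRCN0000287659 was not called, at -0.41 (SE 0.16), but was called lower without culture A (-0.28, Benjamini-Hochberg adjusted p = 0.0296, limma) or culture B (-0.52, adjusted p = 0.0499). Among these 7 hairpins, 2 were called higher, 2 lower and 3 neither way, beside 17.1% higher and 47.6% lower over all pools.

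The genes put in no functional list, Csmd3, Dennd3, Rsbn1l and Tmtc2, had 11 hairpins, with 1 called higher, 6 lower and 4 neither way, beside the same 17.1% and 47.6%. Tmtc2 encodes a protein of the endoplasmic reticulum membrane. TRCN0000249554 rose from 2.44% and 2.46% to 6.11%, 5.08% and 4.58% (change 1.09, SE 0.15, Benjamini-Hochberg adjusted p = 0.000501, limma), while the rare TRCN0000249555 held 0.0120% and 0.00933% and then 0.0436%, 0.00486% and 0.00666%, with overlapping groups. Rsbn1l had 3 of 4 hairpins called lower. TRCN0000252732 went from 0.890% and 0.656% to 0.0640%, 0.158% and 0.169% (change -2.68, SE 0.49, Benjamini-Hochberg adjusted p = 0.00255, limma) under all scalings. TRCN0000252730 changed by -1.26 (SE 0.24) under 3 scalings and TRCN0000252731 by -0.94 (SE 0.24) under 2, and the call of TRCN0000252731 was lost without culture B (Benjamini-Hochberg adjusted p = 0.0736, limma). TRCN0000252733 was not called on shares, at -0.23 (SE 0.13), and was called higher under 3 other scalings, where its change reached 0.51.

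Csmd3 encodes a large membrane protein with CUB and sushi domains. TRCN0000251127 fell from 0.618% and 0.439% to 0.137%, 0.0644% and 0.0714% (change -2.60, SE 0.46, Benjamini-Hochberg adjusted p = 0.00194, limma), and TRCN0000251128 had overlapping groups (change 0.07, SE 0.52). Dennd3 encodes an exchange factor for a Rab GTPase. TRCN0000253516 (-2.05, SE 0.62) and TRCN0000253515 (-0.92, SE 0.24) were called lower on shares and deposited values only. Neither was called without day 0 library B (Benjamini-Hochberg adjusted p = 0.165 and 0.158, limma) or C (0.131 and 0.0576). TRCN0000253517 was not called on shares, at 0.14 (SE 0.32), with overlapping groups, and was called higher under 3 other scalings.

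Hairpins of the same gene often differed. Among the 17 genes with at least 2 hairpins, the gap between the highest and the lowest change within a gene had a median of 2.11 on the log2 scale, from 0.40 for Zfhx4 to 3.90 for Cdh10. In 9 of these genes the hairpins had changes of both signs on the share scale. In 3, Arid1a, Hmcn1 and Mll3, hairpins were called in both directions, and no gene had all of its hairpins called higher. In the other pools, over 303 sets of at least 2 hairpins against a gene, the median gap was 1.72, 51.8% had changes of both signs, 24.1% were called in both directions, 19.1% had every hairpin called lower and 1.32% every hairpin called higher. Pool 3 was not tested against them.

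Fewer hairpins carried the population after culture. The effective number of hairpins, the exponential of the Shannon entropy of the shares, was 31.1 and 30.4 at day 0 and 21.0, 21.4 and 22.2 in cultures A, B and C. The cultures lay below both day 0 libraries and close to each other. The log2 difference was -0.51, and an exact two-sided permutation test gave p = 0.2, the smallest that 2 against 3 libraries allow. In the other 17 pools the difference ranged from -1.0 to -0.18 with a median of -0.48. The 5 hairpins most abundant at day 0 made up 36.3% and 36.4% there and 43.8%, 44.7% and 43.7% in culture. The 5 most abundant in culture, 4 of them the same hairpins, made up 48.3%, 49.3% and 48.9% of the cultures and 35.4% and 35.1% at day 0.

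Cultures agreed less with each other than the day 0 libraries did. Across the 54 hairpins, which are not independent replicates, Pearson's r of log2 shares was 0.983 between the day 0 libraries, 0.914 for cultures A and B, 0.955 for A and C and 0.959 for B and C. Between a day 0 library and a culture it ran from 0.794 to 0.920. The spread between cultures was larger for rare hairpins. Among the 27 less abundant hairpins (up to 1.06% at day 0) the median SD of log2 values between cultures was 0.59, against 0.27 among the 27 more abundant ones (from 1.35%). Of the less abundant hairpins 3 were called higher and 12 lower, and of the more abundant ones 7 and 14, beside 17.1% and 47.6% over all pools.

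The 8 control hairpins were the control rows with reads in every pool 3 library used. They were also read in the other pools compared, but at unlike levels. On the log2 CPM scale at day 0, PIK3CA stood at 5.8 in pool 3 and 14.1 in pool 1, and GFP at 12.3 and 7.4. In pool 3 the controls amounted to 7.17 and 7.16 reads per 100 pool 3 reads at day 0 and 3.59, 4.51 and 4.88 in cultures A, B and C. The log2 difference was -0.74 (exact permutation p = 0.2, again the smallest possible), beside the median change of the targeting hairpins of -0.74. The total leans on the Cdkn1b hairpin, which made up 38.5% and 37.7% of the control reads at day 0 and 50.0%, 66.9% and 60.7% in culture. The other 7 controls changed by -1.36 as a total, and relative to them the median targeting hairpin would stand at 0.62. Of the 8 controls, 4 were called, 1 higher and 3 lower. The same fit called 74.3% of the controls of all pools, 25.0% higher and 49.3% lower. In culture libraries labelled for a pair of pools it divided the controls of both by the reads of a single pool, which raises their change. These figures are therefore not like for like with pool 3. Non-targeting-shRNA-2 fell from 2.07% and 2.09% to 0.749%, 0.314% and 0.554% (change -2.03, SE 0.37, Benjamini-Hochberg adjusted p = 0.00241, limma). Non-targeting-shRNA-1 rose from 0.296% and 0.334% to 0.608%, 0.765% and 0.611% (change 1.06, SE 0.24, Benjamini-Hochberg adjusted p = 0.00625, limma). The non-targeting controls, meant to match no gene, thus moved by as much as many targeting hairpins and in opposite directions, under all scalings. The rise of Non-targeting-shRNA-1 was not called without day 0 library B or C (Benjamini-Hochberg adjusted p = 0.0935 and 0.0550, limma).

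Among the remaining controls, the GFP hairpin changed by -1.14 (SE 0.41, Benjamini-Hochberg adjusted p = 0.0431, limma), a call made on shares alone and lost without day 0 library B or C or culture B (0.146, 0.0863 and 0.117). The hairpin against MUC1 held 0.0537% and 0.110% and then 0.0377%, 0.0124% and 0.0149%, and was not called (change -2.0, SE 0.79, Benjamini-Hochberg adjusted p = 0.0600, limma). It was called lower with a pseudocount of 100 (-1.55, Benjamini-Hochberg adjusted p = 0.0387, limma) or without culture A (-2.49, adjusted p = 0.0123). The Cdkn1b hairpin, against the cell cycle inhibitor p27, had overlapping groups on shares (change -0.11, SE 0.24) and was called higher under 3 scalings. The PIK3CA hairpin was at 0.00526% and 0.00590% at day 0 and at 0.0234%, 0.00293% and 0.00273% in culture, with overlapping groups.

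Scaled on the targeting reads of every pool named for a library, Non-targeting-shRNA-1 was higher in culture in 17 of 17 other pools, with changes from 0.27 to 0.91 (median 0.50), beside 1.06 in pool 3. Non-targeting-shRNA-2 was lower in all 17 other pools, from -3.35 to -2.0 (median -2.86), beside -2.03 in pool 3. The MUC1 hairpin was lower in all 17 other pools too (median -3.16). The PIK3CA hairpin was lower in 15 of the 17 other pools (median -1.85) and stood at 0.05 in pool 3, or -0.95 without culture A. In the 6 pools where it was about as rare at day 0, its change ran from -2.82 to 0.55. In pool 3 it had 431 and 338 reads at day 0 and 2085, 216 and 228 in cultures A, B and C. The highest count of a single hairpin from another pool was above it in each library but culture A, where that count was 973. The part of such reads in its counts was not tested. The GFP hairpin was lower in 14 and the Cdkn1b hairpin in 11. Pools cultured in shared libraries are not independent, and the difference between pool 3 and the others was not tested.

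For 7 genes of pool 3, hairpins with other identifiers lay in pools 1, 2 or 13. Pools 1 and 2 shared their culture libraries, pool 13 had no culture values, and limma's prior for pool 2 had no upper bound for most hairpins, so small p-values of pool 2 rest on the fitted trend. Cdkn2a hairpin TRCN0000222731 in pool 2 rose from 5.64% ± 0.42 to 12.9% ± 0.91 of that pool (SD, n = 3 each), a change of 1.19 (SE 0.11), in the same direction as the Cdkn2a hairpin of pool 3. Rb1 hairpin TRCN0000042543 in pool 2 rose as well, from 0.676% ± 0.176 to 1.43% ± 0.128 (SD, n = 3 each), with a change of 1.11 (SE 0.19), while TRCN0000055378 in pool 1 was called lower on shares (-2.19, SE 0.74) and not with TMM factors, where its change was -1.82, at 0.0133% of its pool at day 0. Csmd3 hairpin TRCN0000087307 in pool 1 fell by 1.44 (SE 0.15), with TMM factors by 1.06, and TRCN0000087306 by 0.24 (SE 0.05) on shares but not with TMM factors.

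Both Tmtc2 hairpins of pool 2 fell on shares, TRCN0000176179 by 1.5 (SE 0.15) and TRCN0000175964 by 0.88 (SE 0.19), while the abundant Tmtc2 hairpin of pool 3 rose, and the first also fell with TMM factors. Both Zfhx4 hairpins of pool 2 were lower on shares, TRCN0000075531 at -1.20 (SE 0.17) and TRCN0000075532 at -1.07 (SE 0.46), and the former also with TMM factors. The Syne1 hairpins of pool 2 were at -0.19 (SE 0.18), not called, and -0.69 (SE 0.27), called on shares only, with none called higher. The Tgfbr2 hairpin TRCN0000022626 of pool 2 was rare, at 0.0293% ± 0.0099 at day 0 (SD, n = 3), and was not called (-0.58, SE 0.58). Differences between pools were not tested.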

How the data were processed

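Hairpins had been amplified from genomic DNA by a two-step PCR, per the labels' protocols, without molecular identifiers being mentioned, and counting error is then only a lower bound on the error. The deposited tables give a normalised read signal per hairpin made by the authors, per the file headers. The submitters' processing notes name BWA 0.5.9, while the counting, the scaling and the genome build are details not given in the sources used here. Each signal value was divided by the smallest of its library, taken as 1 read, and 17783 of 17783 values came out whole within 0.01 reads. A hairpin absent from a table counted as 0 reads, and technical repeats were summed. Reads were divided by the targeting reads of the pool, turned into CPM, and log2 values with a pseudocount of 1 were fitted for each pool with limma 3.58.1 (R 4.3.3; trend and robust estimation), after leaving out hairpins with a mean under 10 reads, which removed none of pool 3. limma's prior degrees of freedom were 3.64 to 3.84 in pool 3, beside 3 residual ones. Since the unit was a scaled signal, the count tests of edgeR 4.0.16 and DESeq2 1.42.0 on the recovered reads were alternatives. Named hairpins were, by rule, the 12 of lowest adjusted p in each direction, the 5 most and 5 least abundant at day 0, the controls, and genes with all hairpins called in 1 direction or some in both. Other hairpins are named to account for the remaining members, except some hairpins that enter the counts and are not reported here by name. The pool, the gene lists and the tests were chosen with earlier results of these data known, and the stability over 5 scalings was summarised after seeing the fits. The tables give hairpins by identifier and target, and no hairpin sequence was used here.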

Additional observations from a re-analysis of the deposited data

Results flagged for a closer look

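Reads of hairpins from other pools are outside the comparison. In the pool 3 cultures they made up 0.150% of the reads of library A, 0.0988% of library B and 0.617% of library C, each above the higher of the day 0 libraries (0.0796%). In culture C nearly all were pool 13 hairpins, with 54070 reads, and in culture A most were, with 11425 reads, while culture B had 984. Conversely, the day 0 libraries of pool 13 held 692 to 1654 RPM of pool 3 hairpins in all. Their part in the changes of rare pool 3 hairpins was not tested.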

How the results depend on the processing

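On shares, 36 pool 3 hairpins were called. The count of hairpins called lower, 26 on shares, was 11 with TMM factors, 12 with DESeq2 size factors, 10 with the control total, 11 with edgeR and 12 with DESeq2, while hairpins called higher numbered 15 in each of these fits. Tools and scalings thus differ here mainly in where the median lies: it was -0.74 on shares, -0.037 with TMM factors, -0.049 with DESeq2 size factors, -0.0028 relative to the controls, -0.64 on deposited values, 0.031 with edgeR and 0.018 with DESeq2. Leaving out 1 library in turn moved the median between -0.83 and -0.74, and lost 9 and 10 of the 36 calls without day 0 libraries B and C, 0, 8 and 3 without cultures A, B and C, with no change of sign. Calls were added too, 7 without culture A, 4 without culture B and 2 without culture C. Where day 0 was left with 1 library, that library was assumed to vary like the cultures. The change of the effective number was -0.61 with the inverse Simpson index and -0.18 for hairpins with at least 1 read per 1000. The control total relative to the median targeting hairpin was 0.0028, against -0.74, and the total without the Cdkn1b hairpin, an alternative chosen after seeing the data, was -1.36. Between the 5 scalings the sign differed for 10 of the 54 hairpins, 3 of them called on shares. Those 3 were Cdh10 hairpin TRCN0000251667 (0.21 with TMM factors, 0.20 with DESeq2 size factors, 0.24 with the control total), Mll3 hairpin TRCN0000238936 (0.14 with TMM factors, 0.13 with DESeq2 size factors, 0.18 with the control total, 0.15 with edgeR, 0.14 with DESeq2) and Zfhx4 hairpin TRCN0000350576 (0.054, 0.042, 0.088, 0.089 and 0.080 in the same order). The Cdkn1b control also turned (0.59, 0.58, 0.62, 0.61 and 0.60). The cause of these shifts was not tested beyond the scaling itself. With the replicate block, which uses only libraries B and C of both arms, the median was -0.83 and 41 hairpins were called, 12 higher and 29 lower. Among the 43 named hairpins, controls included, the block added 5 calls and lost 2. The added ones included Rb1 hairpin TRCN0000218099 and the lost ones Mll3 hairpin TRCN0000238934 (Benjamini-Hochberg adjusted p = 0.158, limma). Only 2 letters are shared, and the labels do not say that a letter marks a shared culture. The deviations of same-letter libraries correlated at 0.29 for B and 0.11 for C, while culture A correlated at 0.20 with day 0 library C. With 2 day 0 libraries the deviations of B and C mirror each other, so these values are not separate checks of pairing. Of the 54 hairpins, 1 fell under a filter of 1000 reads, and neither that filter, no filter nor a pseudocount of 100 moved a count by more than 1.5 times, although the pseudocount removed 1 call and added 2.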

Other observations

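Pool 3 hairpins also appeared outside their own libraries. Over 88 other day 0 and culture libraries they had a median of 1.63 RPM in all. The highest value was in day 0 library C of pool 15, where 40 of the 54 hairpins had reads and pool 3 made up 118593 reads, or 2.05% of the library. As a description across the 54 hairpins, the composition of these reads had r from 0.522 to 0.535 with the pool 3 day 0 libraries and from 0.513 to 0.554 with the pool 3 cultures.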
